A study of Arabidopsis thaliana with 3 samples.

Results

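Alpha-expansins are small secreted proteins of the plant cell wall. This account covers 5 of their genes, EXPA7, EXPA9, EXPA16, EXPA22 and EXPA25, in the vascular tissue of Arabidopsis thaliana cotyledons. The 5 genes were chosen by symbol, with their values on these same arrays already known and with no stated threshold of level or difference, so their values are given as a description and carry no test. They are 5 of the 14 alpha-expansin genes measured under a name here, among 16548 named genes in all. The annotated gene table lists 26 alpha-expansins, and the other 12 were not analysed here.

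The first array held wild type grown with 1 µM of the peptide CEP1 in the medium throughout, the second held the mutant cepr1-1 on medium without added peptide, and the third held wild type on the same medium without CEP1 (WT control). Seedlings of all groups grew for 8 days in continuous light, and their cotyledons were macerated with cell wall enzymes and sonicated before the vascular strands were picked by hand. RNA from 200 cotyledons was pooled for each group, with 1 Affymetrix Arabidopsis Gene 1.0 ST array per group. The accession line of the wild type was not given in the labels, and cepr1-1 is a single mutant line.

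As background, the plant primary wall is a network of cellulose microfibrils, xyloglucan and pectin that yields under turgor as a cell grows. Expansins loosen it without cutting its polymers, by weakening the contacts between cellulose and xyloglucan, and they work best at acid pH. The CEP peptides are made in roots short of nitrogen and are perceived in the shoot vasculature by the receptor kinase CEPR1, which the cepr1-1 mutation disrupts. The design therefore allows the question of whether wall loosening genes differ with the added peptide, with loss of its receptor, or with both in opposite ways.

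With 1 array per group there was no spread between replicates, so no p-value could be given and each difference is between 2 arrays only. All levels below are log2 probe set values as deposited, a difference is a subtraction of such values, and a fold is 2 raised to the size of that difference. A gene was counted as higher or lower at 1.5-fold, which is 0.58 on the log2 scale. It was counted as above the floor where the brighter of the 2 arrays reached that array's median over named genes, which was 3.07 with CEP1, 3.11 in cepr1-1 and 3.07 in the WT control. Less RNA per cell and fewer cells of a type cannot be told apart in such pooled tissue.

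The 5 genes did not move together. EXPA9 was higher with CEP1 and lower in cepr1-1, EXPA25 and EXPA16 were lower with CEP1 and close to the WT control in cepr1-1, EXPA22 was lower with CEP1 and higher in cepr1-1 by less than 1.5-fold each way, and EXPA7 was almost level on the 3 arrays.

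**Figure D1:**
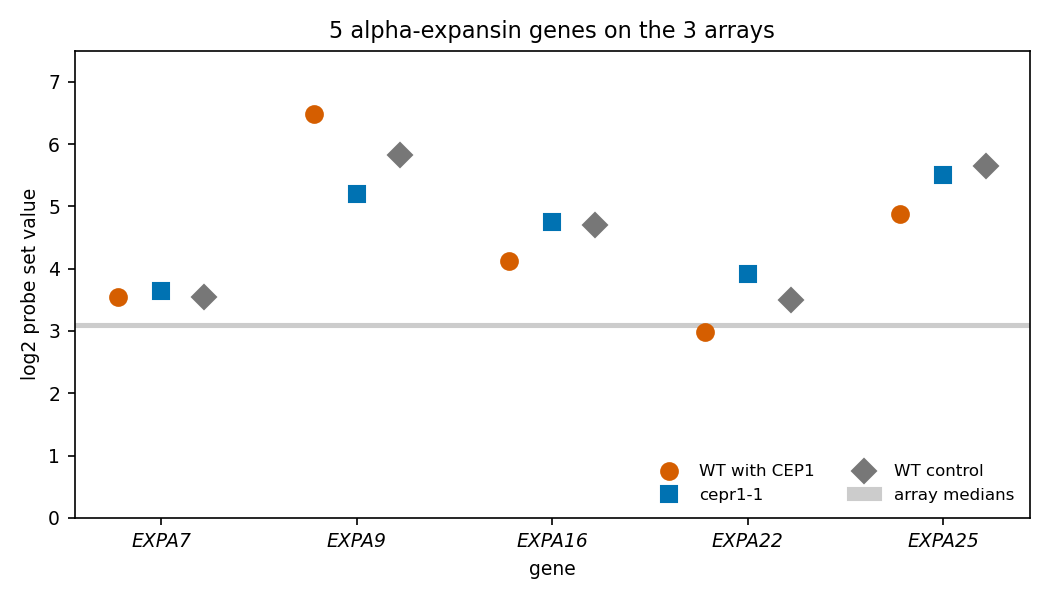
Deposited log2 level (vertical axis) of each of the 5 alpha-expansin genes on the 3 arrays (WT with CEP1, cepr1-1, WT control), 1 point per array with no replicates and a grey band over the range of the array medians. EXPA9 is highest with CEP1 at 6.48 and lowest in cepr1-1 at 5.19, whereas EXPA16, EXPA22 and EXPA25 are lowest with CEP1.

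EXPA9 (AT5G02260) had a level of 6.48 with CEP1, 5.19 in cepr1-1 and 5.82 in the WT control. Its level lay well above the array median on each array, and the WT control stood between the other arrays. The difference from the WT control was 0.66 with CEP1, 1.58-fold higher, and -0.63 in cepr1-1, 1.55-fold lower. Among genes above the floor, 1.87% differed by at least as much with CEP1 and 3.02% did so in cepr1-1. Set directly against each other, without the control array, the CEP1 level exceeded the cepr1-1 level by 1.29, or 2.45-fold, a size reached by 1.12% of genes above the floor.

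EXPA25 (AT5G39300) had a level of 4.87 with CEP1, 5.50 in cepr1-1 and 5.65 in the WT control. The CEP1 array was the low one, and the other arrays lay close together. The difference from the WT control was -0.78 with CEP1, 1.72-fold lower, and -0.15 in cepr1-1. With CEP1, 1.15% of genes above the floor differed by as much or more, against 24.8% in cepr1-1, so the cepr1-1 difference was of an ordinary size for these arrays.

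EXPA16 (AT3G55500) had a level of 4.12 with CEP1, 4.75 in cepr1-1 and 4.71 in the WT control. The CEP1 array was low, and the other arrays were nearly equal, with cepr1-1 slightly above the WT control where EXPA25 was slightly below it. Its CEP1 difference of -0.59 was 1.50-fold and only just passed the size used for counting, and its cepr1-1 difference was 0.04. Of the genes above the floor, 2.61% differed by at least as much with CEP1.

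EXPA22 (AT5G39270) had a level of 2.99 with CEP1, 3.91 in cepr1-1 and 3.50 in the WT control. The order was the reverse of that of EXPA9, with cepr1-1 highest and CEP1 lowest, and the CEP1 value lay below the median of its array, where signal above background is not shown. The difference was -0.51 with CEP1 and 0.41 in cepr1-1, and neither reached 1.5-fold. In the direct comparison the measured CEP1 value was 0.93 below the cepr1-1 value. No exact fold is read from it, because the gene passed the floor through its cepr1-1 value alone.

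EXPA7 (AT1G12560), an expansin known from Arabidopsis root hairs, had a level of 3.54 with CEP1, 3.64 in cepr1-1 and 3.54 in the WT control. The CEP1 and WT control values were equal, and cepr1-1 was 0.10 higher, a size that 30.0% of genes above the floor reached. The other root hair expansin with a named probe set, EXPA18, had levels of 2.29, 2.36 and 2.29 in the same order of arrays, all below the array medians.

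Counted against the WT control, 1 of the 5 genes was at least 1.5-fold higher with CEP1 (EXPA9) and 2 were lower (EXPA16 and EXPA25). In cepr1-1, 0 were higher and 1 was lower (EXPA9). Over all genes above the floor, 1.56% were higher and 1.07% lower with CEP1, and 1.29% were higher and 2.13% lower in cepr1-1. These shares stand beside the counts for scale only, because the genes were chosen with the same values in view. The median difference over the 5 genes was -0.51 with CEP1 and 0.04 in cepr1-1, but the members go both ways and were chosen with their values known. Over all 14 named alpha-expansins the median was 0 in each comparison, as it was over all named genes. Both comparisons share the control array. With a pseudocount of 16 added on the linear scale, 0 of the 5 genes passed 1.5-fold against the WT control, and EXPA9 stood at 0.54 with CEP1 and -0.46 in cepr1-1.

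The direct comparison of the CEP1 array with cepr1-1 leaves the control array out. There EXPA9 was at least 1.5-fold higher with CEP1, and EXPA16 and EXPA25 were lower. EXPA22 was also past that size as measured, but its CEP1 value lay below the array median. The difference was -0.63 for EXPA16 and -0.63 for EXPA25. The median over the 5 genes was -0.63, but they go both ways and were chosen with their values known. Over all 14 named alpha-expansins the direct median was 0. Of all genes above the floor, 3.73% were higher and 1.94% lower by at least 1.5-fold.

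EXPA9 was the one member that was higher with CEP1 and lower in cepr1-1 by 1.5-fold each. Across the arrays 30 genes had this pattern, 0.35% of those above the floor in both comparisons, and EXPA9 ranked 28 of the 30 by the smaller of its 2 differences. AT1G06830 and AT2G47880, known as CEPD1 and CEPD2, the glutaredoxins that act downstream of CEPR1, were in the same set with larger differences. CEPD1 had 9.0 with CEP1, 3.39 in cepr1-1 and 7.46 in the WT control, and CEPD2 had 5.79, 1.78 and 4.06 in the same order. The CEPD2 value in cepr1-1 lay below the array median, so no exact fold is read from it. The reverse order by 1.5-fold each way, with CEP1 below and cepr1-1 above the WT control, was found for 0 of the 5 genes and for 0.117% of genes above the floor. At a smaller size of 0.32 on the log2 scale each way, EXPA22 had the reverse order, with its CEP1 value below the array median, together with 0.385% of genes above the floor.

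**Figure D2:**
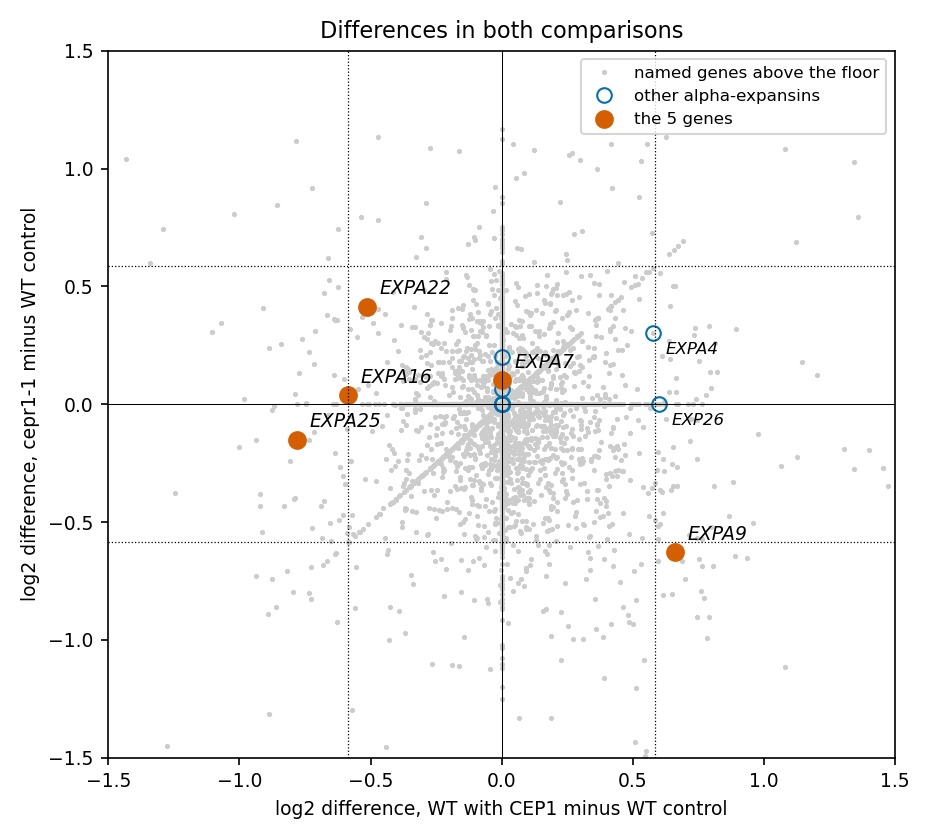
Log2 difference with CEP1 (WT with CEP1 minus WT control, horizontal axis) against the log2 difference in the mutant (cepr1-1 minus WT control, vertical axis), with named genes above the floor as grey points, the 5 alpha-expansin genes as filled orange points, the other 9 named ones as open circles and dotted lines at 1.5-fold. Axes end at 1.5 in either direction, so genes further out are not drawn. EXPA9 lies at 0.66 and -0.63, and EXPA25 lies at -0.78 and -0.15.

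The values of many genes were exactly equal between arrays, which bears on how a difference of 0 is read. Of all named genes, 54.5% had 1 identical value on the 3 arrays, 30.7% had 2 different values and 14.8% had 3. Tied genes are also counted in the shares of genes above the floor given here. A CEP1 difference as small as 0.025, that of the pectin methylesterase gene PMEPCRF, was reached by only 30.2% of genes above the floor. Among genes with untied values the shares beside the EXPA differences would be larger. EXPA9, EXPA16, EXPA22 and EXPA25 had 3 different values each and EXPA7 had 2. The EXPA9, EXPA16 and EXPA25 values were shared with no other named gene on the same array. The WT control value of EXPA22 was shared with 99 other named genes, and the EXPA7 value with 9 others on the CEP1 array and 12 others on the WT control array.

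The other 9 named alpha-expansins stood mostly still. EXPA8 (4.17), EXPA20 (4.93), EXPA21 (1.78), EXPA23 (3.32) and EXPA24 (4.10) had the same log2 level on every array, which makes 5 of the 14 named alpha-expansins. EXPA20 had a second probe set, which was also equal on all arrays. EXPA15 was 3.79 with CEP1, 3.99 in cepr1-1 and 3.79 in the WT control. A level repeated exactly on every array does not show that expression was unchanged, and the EXPA21 value in particular was shared with 598 or more other named genes on each array.

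EXPA4 (AT2G39700), which is not one of the 5 genes, came close to the size used for counting. Its level was 5.35 with CEP1, 5.07 in cepr1-1 and 4.77 in the WT control, so both arrays were above the WT control. The cepr1-1 value was shared with 47 other named genes on that array. The difference was 0.58 with CEP1, 1.49-fold higher, and 0.30 in cepr1-1, 1.23-fold higher. EXPA7, with a difference of at most 0.10, is among the 5 genes and EXPA4 is not, so membership does not follow the size of the difference.

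Across the family of 14, the genes above the floor and at least 1.5-fold from the WT control were EXPA9, EXPA16 and EXPA25 with CEP1 and EXPA9 in cepr1-1. EXP26 (AT5G39290) was 1.2 with CEP1, 0.65 in cepr1-1 and 0.65 in the WT control. Its CEP1 difference of 0.60 lay far below the array medians, so it is not counted.

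EXPA22 and EXPA25 belong to a run of 6 alpha-expansin genes that neighbour each other with no other annotated protein-coding gene between them. The order is EXPA21, EXPA22, EXPA23, EXP26, EXPA25 and EXPA24. Within it, the CEP1 level was below the WT control level for EXPA22 and EXPA25, above it for the dim EXP26 and equal to it for EXPA21, EXPA23 and EXPA24. The pair that was lower with CEP1 differed in cepr1-1, where EXPA22 was 0.41 above the WT control and EXPA25 was 0.15 below it. Neighbouring copies of a family can share probe sequence, and cross-hybridisation between them was not tested.

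**Figure D3:**
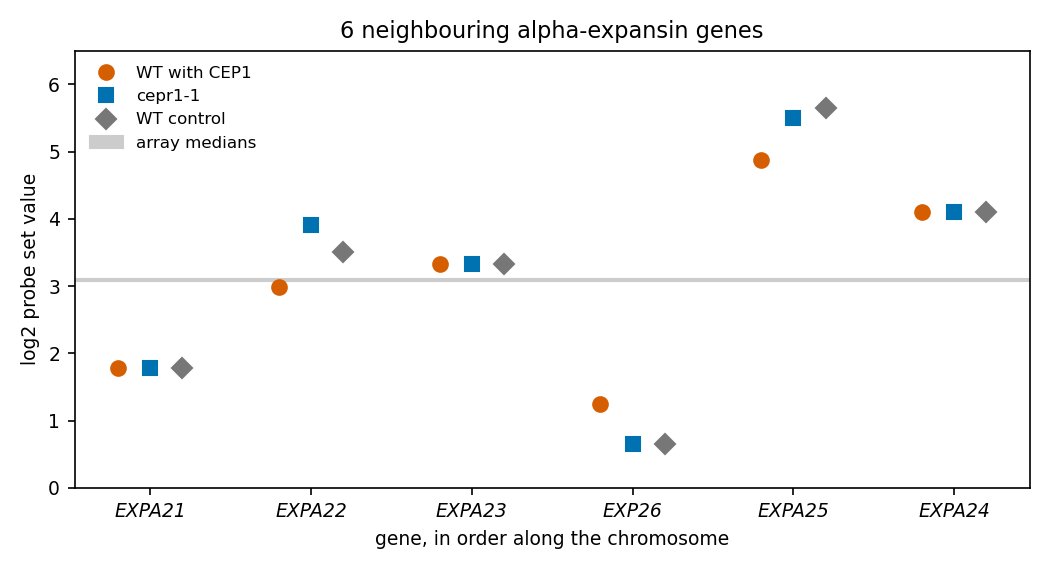
Deposited log2 level (vertical axis) of the 6 neighbouring alpha-expansin genes in their order along the chromosome (horizontal axis), with 1 point per array for WT with CEP1, cepr1-1 and WT control and a grey band over the range of the array medians. The CEP1 points of EXPA22 (2.99) and EXPA25 (4.87) are the lowest of their gene, and the points of EXPA21, EXPA23 and EXPA24 are level.

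The remaining expansin families are the beta-expansins (EXPB) and the expansin-like A and B genes (EXLA, EXLB), of which 10 of 12 had a named probe set. EXLA1 (AT3G45970) was the one of them past 1.5-fold. Its level was 6.65 with CEP1, 6.69 in cepr1-1 and 7.38 in the WT control, so the WT control was the high array. It was 0.73 below the WT control with CEP1 and 0.69 below it in cepr1-1, both taken against the same control array, and the CEP1 and cepr1-1 levels were close. EXPB1 (3.64, 3.85 and 3.64 for WT with CEP1, cepr1-1 and WT control), EXLB2 (4.25, 4.47 and 4.25) and EXPB4 (1.02, 1.1 and 1.02) differed on the cepr1-1 array alone, and the other 6 were equal on all arrays.

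Most named genes for other wall-loosening and wall-building proteins differed from the WT control by less than 1.5-fold in both comparisons. Of 14 further lists, 9 had at least 1 gene with a named probe set, the EXPB, EXLA and EXLB genes among them, and the 5 with none were pectate lyases, proton pumps, aquaporins, extensins and arabinogalactan proteins. Together the lists held 69 named genes of 436 listed, and 31 of the 69 were equal on all 3 arrays, 44.9% against 54.5% of all named genes. With no floor applied, 2 of the 69 were at least 1.5-fold higher and 1 was lower with CEP1, and 1 was higher and 5 were lower in cepr1-1. For scale, 0.991% of all named genes were higher and 0.834% lower with CEP1, and 1.58% were higher and 1.38% lower in cepr1-1. The median difference over the 69 was 0 in each comparison, as it was over all named genes.

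Xyloglucan endotransglucosylase/hydrolases (XTH) cut and rejoin the xyloglucan that tethers cellulose, and 10 of 33 had a named probe set. Of these, only XTH18 passed 1.5-fold, at 1.61 with CEP1, 1.61 in cepr1-1 and 0.96 in the WT control, and all of its levels lay below the array medians. XTH16 was 2.84 with CEP1, 2.99 in cepr1-1 and 3.25 in the WT control, and XTH26 was 3.49, 3.79 and 3.79 in the same order. The XTH16 values with CEP1 and in cepr1-1 lay below the medians of their arrays. XTH32 was 0.08 above the WT control in cepr1-1 and equal to it with CEP1. EXGT-A3, the brightest of the XTH genes, was 6.24 on every array.

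Endoglucanases of family GH9, which trim cellulose and related glucans, had 19 of 25 genes with a named probe set and 0 past 1.5-fold in either comparison. GH9C2 was 7.01 with CEP1, 6.70 in cepr1-1 and 6.67 in the WT control. GH9B15 was 2.84, 2.72 and 3.22 in the same order, lower than the WT control on both arrays by less than 1.5-fold. Its CEP1 and cepr1-1 values lay below the medians of their arrays, so it passed the floor through the WT control alone. GH9B8 and GH9A4 were equal with CEP1 and in the WT control, and 0.23 and 0.18 higher in cepr1-1.

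Pectin methylesterases remove methyl groups from pectin, and 7 of 25 had a named probe set. PMEPCRF (AT5G53370) was 7.07 with CEP1, 6.11 in cepr1-1 and 7.04 in the WT control. It was 1.91-fold lower in cepr1-1 and level with CEP1. Of the other 6, 5 were equal on all arrays, VGDH1 at 3.73 among them. The named galactosidases BGAL15 and BGAL16, whose family trims galactose from wall polymers, were also equal on all arrays.

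Among cellulose synthase-like genes, CSLC04, which makes the glucan backbone of xyloglucan, was 5.70 with CEP1, 5.11 in cepr1-1 and 5.92 in the WT control. CSLD2, needed for normal root hair growth in Arabidopsis, was 5.37, 4.86 and 5.52 in the same order. Both were lower in cepr1-1, 1.76-fold and 1.58-fold, and less than 1.5-fold from the WT control with CEP1. They were the 2 of 9 named members of that list past 1.5-fold in either comparison. CSLC5 and CSLC6 differed from the WT control by at most 0.11 on either array.

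SAUR genes are small auxin-responsive growth genes, and 5 of 80 had a named probe set, with 0 past 1.5-fold. The brightest, AT1G19840, was 3.76 with CEP1, 4.15 in cepr1-1 and 4.15 in the WT control.

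The class III peroxidase AT5G64120, known as PRX71, was the one named gene of the wall lists besides EXPA9 that was above the floor and 1.5-fold higher with CEP1 and 1.5-fold lower in cepr1-1. Its level was 7.77 with CEP1, 6.32 in cepr1-1 and 7.01 in the WT control. Class III peroxidases act in the wall on phenolics and reactive oxygen. The difference was 0.76 with CEP1 and -0.69 in cepr1-1, and the direct comparison gave 2.73-fold.

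**Figure D4:**
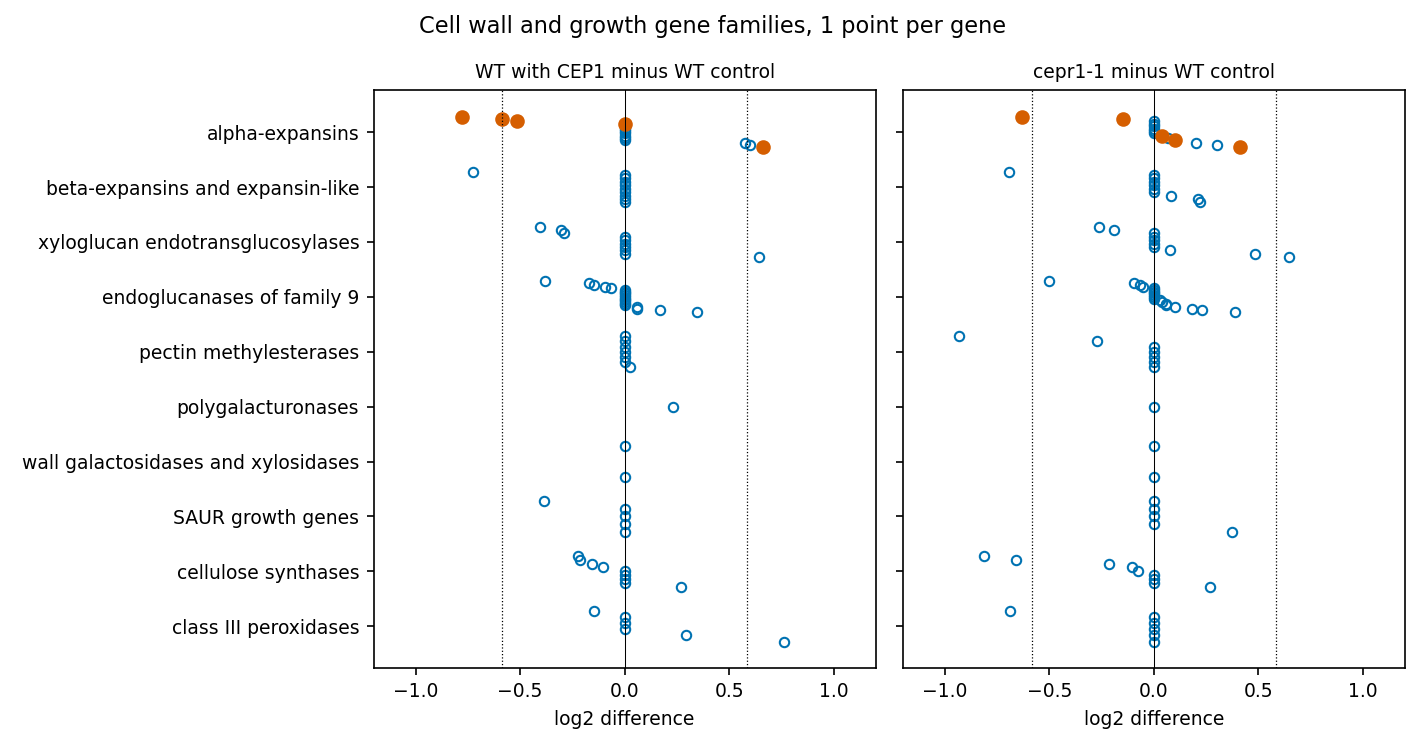
Log2 difference from WT control (horizontal axis) of the named genes of each expansin and wall list (rows), for WT with CEP1 and for cepr1-1 in separate panels, with 1 point per gene, dotted lines at 1.5-fold and the 5 alpha-expansin genes filled in orange. Most points lie at or near 0, and PMEPCRF at -0.93 in cepr1-1 lies beyond every alpha-expansin in that comparison.

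The genes whose pair of differences lay closest to that of a member were found by straight-line distance over both comparisons, which rest on 3 arrays, among 8575 other genes. Closest to EXPA9 was AT5G05365, at a distance of 0.04, with levels of 8.91 with CEP1, 7.56 in cepr1-1 and 8.23 in the WT control. APS3 (AT4G14680), an ATP sulfurylase of sulfate assimilation, followed at a distance of 0.07, and AT5G63410, AT2G20562 and AT1G66880 lay at 0.09 each, which makes 5 genes within 0.1. Closest to EXPA16 was MGL (AT1G64660), a methionine gamma-lyase, at 0.05, then AT4G33690, AT5G05180, AT4G22350 and AT1G48330 at 0.06 to 0.07, with 13 genes within 0.1. Closest to EXPA25 was AT5G56140, at 0.02, then AT1G75880, AT1G56130, AT3G14520 and AT4G03930, with 4 genes within 0.1. The CEP1 values of AT4G33690 (2.55), AT1G75880 (2.96) and AT3G14520 (2.71) lay below the array median, where signal above background is not shown. EXPA16 had more genes that close than EXPA9 or EXPA25. However, AT4G33690, AT5G05180, AT4G22350 and AT1G48330 each had exactly equal values in cepr1-1 and the WT control. The EXPA16 count thus rests in part on such repeated values.

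Markers of the tissue and of other cells it could hold were read beside these results. Of 12 phloem markers 4 had a named probe set, and the sucrose exporter gene SWEET11 was bright on all arrays, at 11.5 on each. Summed on the linear scale, the phloem markers gave 3253 with CEP1, 3225 in cepr1-1 and 3110 in the WT control, but SWEET11 alone made up 89.1%, 91.9% and 91.4% of these sums, so they are mainly the level of that gene. One phloem marker, the peptide gene CLE44, had the same order of arrays as EXPA9, with 4.87 with CEP1, 2.15 in cepr1-1 and 3.91 in the WT control, while CLE41 (8.31, 7.96 and 7.93) and SWEET11 were not below the WT control in cepr1-1. The CLE44 value in cepr1-1 lay below the array median. The xylem, procambium and epidermis lists had no gene with a named probe set. The 3 named mesophyll markers of 9 (RCA, SBPASE and PRK) summed to 892 with CEP1, 1186 in cepr1-1 and 960 in the WT control. These markers did not move together in cepr1-1, where SBPASE was 1.62-fold higher, RCA 1.16-fold higher and PRK 0.03 lower on the log2 scale than in the WT control. The 3 named genes of the 10 on the guard cell list are regulators of stomatal development, so they do not stand for mature guard cells. They summed to 34.6 with CEP1, 47.6 in cepr1-1 and 46.8 in the WT control. The lower CEP1 sum came from FAMA (FMA in the gene table) alone, at 4.86 with CEP1, 5.37 in cepr1-1 and 5.37 in the WT control, a difference under 1.5-fold, while MUTE and SPCH lay below the medians and were equal with CEP1 and in the WT control. The part of these cell types in the expansin differences was not tested. CEPR1 was not analysed here, so the genotype label was not checked on its own gene.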

How the data were processed

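Vascular RNA of cotyledons was measured on 3 arrays, 1 per group. The authors deposited log2 values per probe set, a scale read from the range of the values, and the submitters' processing notes name Affymetrix Expression Console 1.3. How background was corrected, arrays normalized and probes summarised is not stated in the labels or notes. Arrays were compared as deposited, and their number limits the precision.

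Of 38408 probe sets, 16722 are annotated with 1 gene, 759 with several (left out) and 20927 are unlisted. RefSeq's TAIR10.1 table supplied names and gene order only, through 16574 matches on gene ID and 96 on locus, and 52 probe sets kept the annotation's name. The brightest probe set on average stood for each locus, which left 16548 named genes.

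The 5 members and all lists were chosen with earlier results of these data known. Lists were matched by symbol, locus or family name, and 6 loci of unrelated families were taken out after their matches were read. Genes named are all expansins, CEPD1, CEPD2, up to 4 members of each other wall list with the largest differences above the floor plus the brightest, the 5 nearest genes of each member past 1.5-fold, and markers. XTH18 and BGAL15 lie outside that rule and were named after their values were seen. No test was made, since 1 array per group leaves no spread. Calculations used Python 3.11.15, numpy 2.4.6, pandas 2.3.3 and statsmodels 0.14.6. The counting code was run on simulated data with planted changes and an assumed noise. That run checks the code only and does not show how reliable the counts on these arrays are. The alternatives were quantile normalization, median centring, a pseudocount of 16, removal of a lowess trend with level, the mean of probe sets per locus and other sizes.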

Additional observations from a re-analysis of the deposited data

How the results depend on the processing

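Quantile normalization, median centring, removal of the intensity trend and the mean of probe sets per locus each left the direction and the side of 1.5-fold of all 24 results as reported. Most of these settings could hardly move the members. Each member has 1 probe set, so the mean of probe sets changes nothing for it. The CEP1 and WT control medians were equal at 3.07, so centring leaves that comparison as it was. Trend removal also left the CEP1 differences of the members unchanged. Of these settings, only quantile normalization changed those CEP1 differences. Over these settings EXPA9 ranged between 0.63 and 0.66 with CEP1 and between -0.67 and -0.59 in cepr1-1, EXPA25 between -0.80 and -0.78 with CEP1, and EXPA16 was -0.59 throughout. With quantile normalization the EXPA9 difference in cepr1-1 was -0.5857, so it only just passed the size used for counting, 0.585. A pseudocount of 16 on the linear scale, which shrinks differences of dim genes by construction, took every member under 1.5-fold against the WT control: EXPA9 was 0.54 with CEP1 and -0.46 in cepr1-1, EXPA16 -0.33 and EXPA25 -0.55 with CEP1. The median over the 5 genes was then -0.19 with CEP1 and -0.36 in the direct comparison, and no member had the EXPA9 pattern (0 of 5). In the direct comparison EXPA16 (-0.36), EXPA22 (-0.38) and EXPA25 (-0.44) then also fell short, whereas EXPA9 did not. The count of named alpha-expansins past the size, 3 with CEP1 and 1 in cepr1-1, became 0 and 0 with the pseudocount and 0 and 0 at 2-fold. At 0.32 on the log2 scale it became 5 and 2. Shares over all genes under these settings were not computed, so these counts have no background beside them. For scale, 6.56% of genes above the floor differed by 0.34 or more with CEP1, and 12.7% by 0.30 or more in cepr1-1. The count over the 14 other wall lists, 3 with CEP1 and 6 in cepr1-1, became 2 and 4 with the pseudocount and 0 and 0 at 2-fold. With the floor applied at 1.5-fold it was 2 and 5. Shares over all genes with the pseudocount and at 2-fold were not computed here either. The pattern counts were chosen after the data were seen. At 2-fold each way 0 of the 5 genes had the EXPA9 pattern, and at 0.32 on the log2 scale each way 1 had the reverse order (EXPA22). No paired analysis was possible because each group has 1 array, and for the same reason no replicate could be left out. Signal over background was not analysed here, so low levels such as that of EXPA22 with CEP1 have no known distance from background.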
